A study of Homo sapiens with 8 samples.

Results

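Solute carriers are membrane proteins that move ions, sugars, amino acids, nucleotides, metals and vitamins across membranes without spending ATP directly. The members described here are the 145 genes whose symbol is SLC, a family number, the letter A and a member number, and which had a mean of at least 20 reads over the chase libraries. GENCODE 29 lists 334 such symbols, and 254 occurred in the deposited counts. Set aside by name were 11 that belong to other gene groups (SLC2A1, SLC2A3, SLC40A1, SLC11A2, SLC7A11, SLC7A5, SLC3A2, SLC38A1, SLC38A2, SLC1A4 and SLC1A5), and 98 of the other 243 had too few reads. The members include 37 of 44 SLC25 genes and 108 genes of other families, out of 15380 genes with a read and 10643 with a mean of 20 or more. Nearest to that mean were SLC7A2 at 19.1 reads and SLC1A3 and SLC25A41 at 18.6 reads outside it, and SLC2A14 at 20.9, SLC25A45 at 21.7 and SLC44A2 at 22 reads inside it. Symbols with another letter, such as the SLC35B carriers, were not matched.

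The SLC25 family holds most carriers of the mitochondrial inner membrane, which exchange ADP for ATP, import phosphate and pass metabolites and cofactors between matrix and cytosol. A few relatives sit elsewhere, SLC25A17 in peroxisomes and SLC25A46 in the outer membrane. Most other families work at the plasma membrane, in lysosomes, or in the Golgi and endoplasmic reticulum, where they set nutrient uptake, ion balance and metal supply. In monocytic cells, lactate export by SLC16A3 and metal transport out of phagosomes by SLC11A1 are textbook examples.

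The cells were THP-1, a human line from an acute monocytic leukaemia. They took up 30 µM 4-thiouridine (4sU), a uridine analogue, for 12 h with fresh medium every 3 h, and 3 mM uridine then chased the label. The groups are chases of 0, 20 and 40 min and of 1, 2, 8 and 12 h, and cells without 4sU, with 1 library each. Chemical conversion makes labelled uridines read as cytosine, so a labelled read carries T-to-C changes, and libraries cover the 3′ ends of mRNAs (QuantSeq 3′ FWD). No condition was replicated, and whether the chase times came from separate cultures is not stated, so p-values measure only the scatter of 7 chase libraries about a line in time (5 residual degrees of freedom). Gene reads ran from 8301034 at 12 h to 11224017 at 8 h in chase libraries, against 2916044 without 4sU. After 0, 2, 8 and 12 h of chase, 30.6%, 27.1%, 10.8% and 5.53% of all gene reads were labelled, against 0.0121% without 4sU. All 10 monocytic markers checked averaged 20 reads or more, and none of 5 lymphoid, 3 erythroid or 4 epithelial markers did, with CD3E and HBB at 0. The library without 4sU stood apart in those markers. Their summed level in counts per 1000000 gene reads (CPM) was 1325 CPM at 0 h (1202 to 1354 over the chase) against 2893 CPM without 4sU, where CEBPA alone held 2587 CPM. Of the other 9 markers 8 were higher at 0 h than without 4sU, and without CEBPA the sums were 1028 CPM at 0 h (792 to 1037 over the chase) and 306 CPM without 4sU.

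The deposited reads sit at 3′ ends, so the 3′ UTR windows that carry a known destabilising element are shown first. AU-rich elements with the nonamer TTATTTATT recruit proteins that promote mRNA decay. Lines give 30 bases of the 3′ UTR, 5′ to 3′ on the mRNA strand, from the GENCODE 29 (GRCh38) transcript of the same identifier, with nonamer matches in capitals. Shown are the 3 members with the shortest and the 2 with the longest half-lives among the 13 tested members whose 3′ UTR holds the nonamer.
SLC37A1: acagactgggTTATTTATTtaagatgtgta
SLC4A7: ccaccctagtTTATTTATTtatagatatct
SLC26A2: cttggccaagTTATTTATTtttaatctctc
SLC36A4: tcacagccttTTATTTATTatgagcagaat
SLC11A1: atctatctatTTATTTATTTATTtgagaca
The SLC37A1 window lies on chromosome 21, those of SLC4A7 on 3, SLC26A2 on 5, SLC36A4 on 11 and SLC11A1 on 2. The capitals of SLC11A1 are 2 overlapping nonamers.

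Nearly every solute carrier mRNA lost its label during the chase. Label decline was tested in edgeR on labelled reads relative to the gene's own total, for genes averaging 50 reads or more. Of 119 members tested, 117 declined at an adjusted p under 0.05 and 0 rose, where 95.3% of all 9402 genes tested declined and 0.0213% rose. That is 29 of 31 SLC25 carriers and 88 of 88 other carriers. The share is close to the background, so it does not set the members apart. The other 26 members had too few reads or labelled reads to test. Only 1 labelled read was counted among 26668 member reads without 4sU, so conversion background was close to nil.

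A half-life here is the time in which the labelled share of a gene's own reads falls 2-fold, fitted as a single exponential. New unlabelled RNA enters the denominator, so a change of total level shifts the value. Half-lives were resolved for 113 members: the decline was called the fit placed at least 10 labelled reads above background at 0 h, the SE of the log rate did not exceed 0.5 and the value lay between 0.25 and 24 h. Their median was 2.80 h with quartiles of 2.27 and 3.75 h, against 2.72 h with quartiles of 2.16 and 3.99 h for 8831 genes. The SLC25 median was 2.76 h (28 genes, quartiles 2.29 and 4.18 h) and that of the other carriers 2.80 h (85 genes, quartiles 2.27 and 3.74 h). Half-lives under 2 h belonged to 17 members (15.0%, against 17.7% of all genes) and those over 6 h to 11 members (9.74%, against 11.9%). By these medians, mitochondrial and other carriers lay close together and close to all genes. Half-lives over 6 h belonged to 4 of the 28 SLC25 carriers (14.3%) and 7 of the 85 others (8.24%). Those under 2 h belonged to 4 (14.3%) and 13 (15.3%). Some counts may hold reads of other genes. Within the last 500 bases, 14 members have an exon of another gene on the opposite strand (among those named below SLC16A3, SLC25A25, SLC25A26, SLC25A29, SLC29A4 and SLC4A2), and 5 on the same strand (among them SLC25A29, SLC25A32 and SLC39A1). GENCODE names pseudogenes for 17 members, including 5 of SLC25A15 and 3 of SLC20A1.

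**Figure D1:**
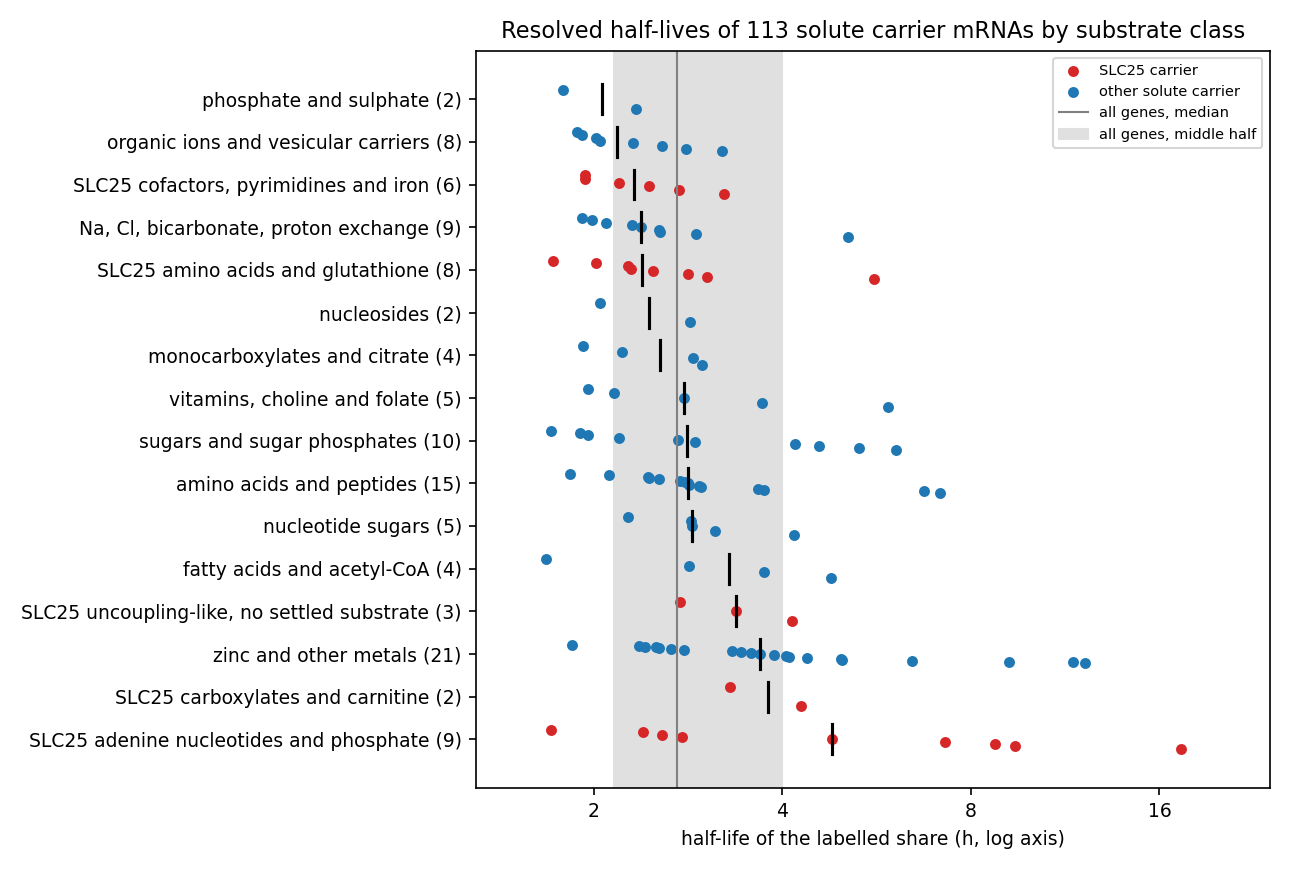
Half-lives of the labelled share (hours, log axis) for the 113 resolved members, 1 point per gene, by substrate class, with the number of genes in brackets; black ticks are class medians, the grey band spans the quartiles of all genes and the grey line is their median. The points over 6 h lie in the adenine nucleotide and phosphate carriers, the zinc and metal carriers, the amino acid carriers and the sugar carriers.

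A few abundant carriers of the ATP cycle held most of the SLC25 reads. SLC25A5 and SLC25A6 are adenine nucleotide translocases that swap cytosolic ADP for matrix ATP, and SLC25A3 brings in the phosphate for ATP synthesis. These 3 genes held 62.3% of SLC25 reads at 0 h and 55.4% at 12 h, against 63.6% without 4sU. After 0, 8 and 12 h their pooled labelled share was 25.6%, 17.5% and 10.2%, with 95% exact binomial (Clopper-Pearson) intervals of 24.97 to 26.26% at the first time and 9.66 to 10.7% at the last. The other 34 SLC25 genes together began higher and ended lower, with 35.7%, 6.42% and 2.28% at the same times. The 108 other carriers had 39.4%, 7.19% and 1.58%. Intervals cover counting error only.

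Through 0 min, 20 min, 40 min, 1 h and 2 h of chase SLC25A5 had labelled shares of 28.2%, 26.9%, 29.8%, 29.02% and 28.99%, then 24.2% at 8 h and 15.5% at 12 h. Its label was flat for 2 h and still above 15% at the end, and its half-life of 17.4 ± 4.14 h (SE) was the longest of the 113 resolved members (edgeR adjusted p = 0.000646). Fitted on labelled CPM, which leaves the gene's own total out, it was 11.4 h. Without the 12 h library the decline of SLC25A5 was not called and the half-life became 34.3 h. SLC25A6 had 20.5%, 19.9%, 20.7%, 20.8% and 21.7% labelled from 0 to 2 h, then 10.8% at 8 h and 5.77% at 12 h, for a half-life of 7.29 ± 1.10 h (adjusted p = 3.42e-08). SLC25A3 had 29.9%, 30.4%, 29.2%, 31.4% and 29.2% from 0 to 2 h, then 19.2% at 8 h and 9.87% at 12 h, for a half-life of 8.73 ± 1.22 h (adjusted p = 2.84e-07). All 3 kept their label through 2 h. The isoform SLC25A4, typical of muscle, was scarce at 8.49 CPM at 0 h, and its label declined with a half-life of 4.81 ± 0.89 h. Total levels of all 3 abundant genes fell over 12 h on the log2 scale, SLC25A6 by 0.63 ± 0.08, SLC25A5 by 0.46 ± 0.09 and SLC25A3 by 0.26 ± 0.08 (SE, edgeR adjusted p = 7.79e-05, 0.00124 and 0.0193). GENCODE names 9 pseudogenes of SLC25A5, 6 of SLC25A6 and 2 of SLC25A3, whose reads may not be fully separable, and SLC25A6 lies in the pseudoautosomal region. Their 3′ UTR segments start, as the deposited counts name them on hg19, at 118605022 on the plus strand of chromosome X for SLC25A5, at 1505045 on the minus strand of chromosome X for SLC25A6 and at 98995307 on the plus strand of chromosome 12 for SLC25A3.

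Adenine nucleotide carriers were not slow throughout. The calcium-dependent ATP-Mg/phosphate carriers SLC25A24 and SLC25A25 had half-lives of 2.57 ± 0.20 h and 1.71 ± 0.24 h, whereas their relative SLC25A23 had 9.40 ± 4.06 h, a value that became 27.3 h without a call (adjusted p = 0.412) when the 12 h library was left out. The total of SLC25A24 rose during the chase, and on labelled CPM its half-life was 4.51 h. SLC25A23 became 6.16 h without the 8 h library. The class of 9 resolved adenine nucleotide and phosphate carriers had a median of 4.81 h and 4 members over 6 h.

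Both tested members without a called decline belong to SLC25. SLC25A1, the citrate carrier that supplies cytosolic acetyl-CoA, had 5.46%, 4.70%, 6.25%, 8.82%, 6.26%, 7.64% and 3.17% labelled from 0 to 12 h (adjusted p = 0.377). SLC25A39, a carrier for mitochondrial glutathione import, had 10.1%, 12.1%, 13.8%, 14.1%, 12.99%, 11.9% and 8.52% (adjusted p = 0.138). Both began with little label, and the highest share of each was that at 1 h. Intervals at 0 h and 12 h were 4.13 to 7.06% and 1.89 to 4.97% for SLC25A1, and 8.57 to 11.7% and 6.94 to 10.3% for SLC25A39. SLC25A1 passed the threshold without the 8 h library (half-life 14.2 h, adjusted p = 0.0481). Total levels of SLC25A1 and SLC25A39 fell by 0.90 ± 0.11 and 0.52 ± 0.09 on the log2 scale (edgeR adjusted p = 4.82e-05 and 0.000412). GENCODE names 5 pseudogenes of SLC25A1 and 2 of SLC25A39.

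Other fast SLC25 mRNAs encode carriers of cofactors, iron and amino acids. SLC25A44, a carrier of branched-chain amino acids, had 46.4%, 43.1%, 43.7%, 40.8% and 28.4% labelled from 0 to 2 h, 0.510% at 8 h and 0.267% at 12 h. The iron importer SLC25A37 (mitoferrin 1) had 44.8%, 43.4%, 42.7%, 41.3% and 29.9%, then 1.91% and 0.270%. In both the label stayed high to 1 h, and by 8 h almost none was left, where SLC25A5 still carried 24.2%. Half-lives were 1.73 ± 0.26 h for SLC25A44 and 1.94 ± 0.24 h for SLC25A37. SLC25A40, a relative of SLC25A39, reached 68.9% at 0 h and 0.893% at 12 h with a half-life of 2.02 ± 0.18 h, against no called decline for SLC25A39. SLC25A32, which carries folate and FAD, had 2.19 ± 0.39 h. The slow end beyond the ATP cycle held SLC25A26, the S-adenosylmethionine carrier, at 5.60 ± 0.82 h and SLC25A11, the oxoglutarate carrier, at 4.29 ± 0.68 h. Among the most abundant of their classes, the pyrimidine nucleotide carrier SLC25A36 had 2.45 ± 0.28 h and SLC25A46 3.37 ± 0.56 h.

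**Figure D2:**
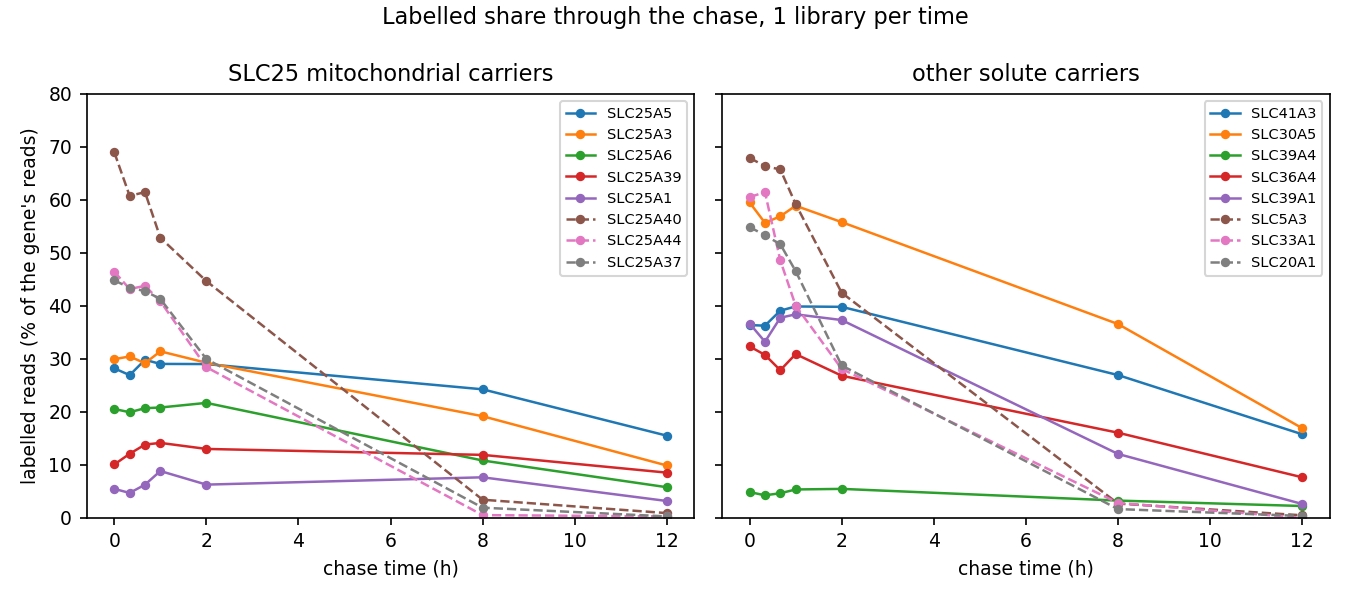
Labelled reads as a percentage of the gene's reads against chase time in hours, 1 library per time, for 8 SLC25 carriers (left) and 8 other solute carriers (right). Solid lines are slow or uncalled members with SLC39A1, and dashed lines are fast ones: SLC25A5 still had 15.5% labelled at 12 h, while SLC25A40, which began at 68.9%, had 0.893%.

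Outside SLC25, metal carriers held the longest half-lives. Zinc enters the cytosol through SLC39 proteins and leaves it for the outside or for organelles through SLC30 proteins. The 21 resolved members of the metal class had a median of 3.69 h, with 4 over 6 h. The 11 SLC39 importers ran from 2.54 h (SLC39A14) to 12.2 h (SLC39A4), with a median of 3.69 h. The 5 resolved SLC30 exporters ran from 2.36 h (SLC30A7) to 9.21 h (SLC30A5), with a median of 2.52 h.

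SLC41A3, of a magnesium transporter family, had 36.3%, 36.2%, 39.1%, 39.8% and 39.8% labelled from 0 to 2 h, then 26.9% at 8 h and 15.8% at 12 h. SLC30A5, which loads zinc into the secretory pathway, had 59.5%, 55.6%, 56.8%, 58.8% and 55.7%, then 36.5% at 8 h and 16.9% at 12 h. Both were flat for 2 h, like SLC25A5. Their half-lives were 11.6 ± 2.44 h for SLC41A3 (edgeR adjusted p = 0.000505) and 9.21 ± 1.59 h for SLC30A5 (adjusted p = 6.29e-05). SLC30A5 combined much label at 0 h with slow loss, and its total level fell by 1.42 ± 0.19 on the log2 scale. Fitted on labelled CPM in place of the share, SLC30A5 had a half-life of 4.79 h and SLC41A3 of 8.03 h.

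SLC39A4, the intestinal zinc importer ZIP4, was abundant at 187 CPM but had little label: 4.86%, 4.25%, 4.64%, 5.35% and 5.46% from 0 to 2 h, then 3.25% at 8 h and 2.23% at 12 h. Its half-life of 12.2 ± 3.86 h rested on the last library: without it the decline was not called (16.98 h, adjusted p = 0.144). On labelled CPM the half-life of SLC39A4 was 5.07 h, beside a fall of its total by 1.35 ± 0.17 on the log2 scale. The zinc exporter SLC30A1, chosen after its values were seen, lay at the other extreme with 73.5%, 69.0%, 70.7%, 70.7% and 50.5% from 0 to 2 h, then 1.61% and 1.05%. Its share at 0 h was the highest of all tested members (95% interval 71.0 to 75.9%). SLC30A1 had a half-life of 2.52 ± 0.52 h, or 1.65 h on labelled CPM. The most abundant member of the metal class, the plasma membrane importer SLC39A1, had 36.6%, 12.05% and 2.61% labelled after 0, 8 and 12 h, for a half-life of 4.10 ± 0.72 h. SLC11A1, the phagosomal metal transporter of macrophages, had 32.7%, 15.8% and 4.55% at those times, for a half-life of 6.44 ± 1.69 h, or 3.36 h on labelled CPM.

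Carriers of nutrients, ions and metabolites spread from 1.68 to 7.13 h. The shortest named half-life was that of SLC33A1, which passes acetyl-CoA into the endoplasmic reticulum. Its label was 60.5%, 61.4%, 48.5%, 40.0% and 28.1% from 0 to 2 h, 2.82% at 8 h, and 0 of 383 reads at 12 h, which allows up to 0.783%. Unlike most members, SLC33A1 had already lost much of its labelled share between 20 min and 2 h, and its half-life was 1.68 ± 0.13 h (edgeR adjusted p = 7.61e-13). Its total rose meanwhile, with 22.9 CPM at 20 min, 32.5 CPM at 2 h and 44.3 CPM at 8 h. The part of new unlabelled RNA in the falling share was not tested. The sodium-phosphate cotransporter SLC20A1 had 1.79 ± 0.21 h, the myo-inositol transporter SLC5A3 1.90 ± 0.22 h and the sodium-bicarbonate cotransporter SLC4A7 1.92 ± 0.17 h. SLC16A9, of the monocarboxylate family, had 1.92 ± 0.38 h, and SLC45A4 had 1.96 ± 0.33 h. Levels of SLC5A3, SLC4A7 and SLC45A4 were higher at 12 h (75.7, 58.2 and 46.9 CPM) than at 0 h (31.8, 31.8 and 23.4 CPM). SLC20A1 and SLC16A9 had no called change of total.

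At the slow end, the amino acid carrier SLC36A4 had 6.74 ± 0.75 h and its lysosomal relative SLC36A1 2.12 ± 0.18 h. The choline transporter SLC44A1 had 5.89 ± 0.67 h, the sugar transporter SLC50A1 5.30 ± 1.03 h and the anion exchanger SLC26A6 5.09 ± 0.90 h. The sulphate transporter SLC26A2, of the same family, had 2.09 ± 0.28 h. Relatives within SLC25, SLC36 and SLC26 thus included values below the members' lower quartile and above their upper quartile, as did SLC41A1 (1.85 h) and SLC41A3. The totals of SLC36A1, SLC26A2 and SLC26A6 rose over the chase, and that of SLC36A4 fell.

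Among the most abundant carriers of their classes, the lactate exporter SLC16A3 had 27.6%, 27.2%, 4.21% and 0.341% labelled after 0, 2, 8 and 12 h, for a half-life of 2.88 ± 0.58 h. The exon antisense to the end of SLC16A3 belongs to CSNK1D, and the strand setting of the counting is unknown. The nucleoside transporter SLC29A1, whose substrates include uridine, had 2.85 ± 0.58 h, and the fructose transporter SLC2A5 had 4.57 ± 0.66 h. SLC43A3, classed with amino acid carriers by its family but known for purine nucleobases, had 2.55 ± 0.38 h. SLC17A9, which fills vesicles with nucleotides, had 2.31 ± 0.42 h, and SLC35A4, of the nucleotide sugar family, 4.17 ± 0.69 h.

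Genes related to the members were described by the same values. Half-life medians were 2.36 h for the 10 resolved SLC genes set aside by name, 2.97 h for 15 ABC transporters, 4.65 h for 17 mitochondrial carriers and channels with other names, such as the VDAC and SFXN genes, and 3.90 h for 16 components of the machinery that imports SLC25 proteins. Against these, the SLC25 median of 2.76 h was lower than that of both mitochondrial lists. Of the import machinery, 13 of 17 genes fell in total level and 2 rose, where 23.9% of all genes fell and 27.4% rose.

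Label was lost late. At 2 h the median tested member kept 85.9% of its pooled share of the first 40 min (SLC25 88.2%, other carriers 85.0%), against 83.3% for all genes. Over 80% was kept by 72 of 119 members, against 5286 of all 9402 genes tested, so late loss was not particular to the members. At 8 h the medians were 15.6% for members, 17.1% for SLC25 and 15.4% for other carriers, against 14.1% for all genes. By 12 h they were 2.07% for members, 4.92% for SLC25 and 1.79% for other carriers, against 3.14% for all genes. A single exponential therefore described the time course poorly, with a median Pearson dispersion of 4.22 for tested members and 3.74 for all genes, and standard errors were widened for it. On the 0 to 2 h libraries alone the decline was called for 27 members, against 117 on all 7, and the count over all genes is not given here.

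Label at the end of the pulse and half-life moved in opposite directions across genes, with a Spearman rho of -0.56 over the 113 members and -0.52 over 8831 genes. Both come from the same reads. The median share at 0 h was 43.8% for tested members, 45.6% for SLC25 and 43.1% for other carriers, against 44.5% for all genes. SLC30A5 stood off this trend with 59.5% labelled and slow loss, and SLC25A29 with 12.8% labelled and a half-life of 2.27 ± 0.90 h, which became 3.55 h without the 8 h library. SLC25A29 overlaps other annotated transcripts at its 3′ end on both strands.

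**Figure D3:**
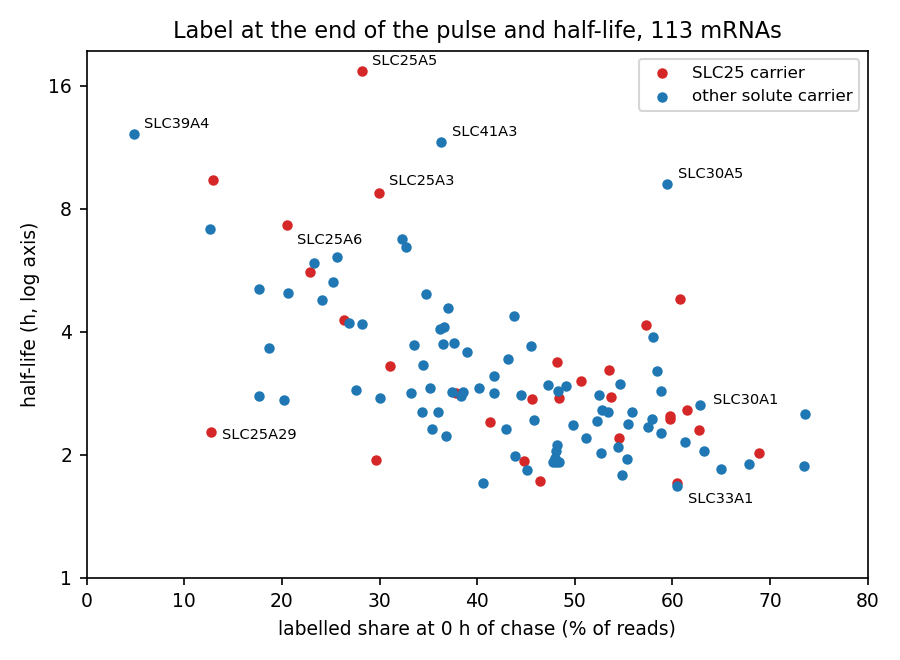
Half-life (hours, log axis) against the labelled share at 0 h (percent of reads), 1 point per gene for the 113 resolved members, SLC25 in red and other carriers in blue. Points fall from upper left to lower right (Spearman rho -0.56), with SLC30A5 above the trend and SLC25A29 below it.

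The nonamer TTATTTATT occurred in the 3′ UTR of 13 of 119 tested members (10.9%, against 8.90% of all genes tested), on the mRNA strand only. Resolved members with it had a median half-life of 2.30 h (13 genes), against 2.84 h without it (100 genes), and for all genes the medians were 2.40 and 2.77 h. The pentamer ATTTA, which the nonamer contains, occurred in 89 members (74.8%, against 72.2%), with medians of 2.61 h with it and 3.44 h without it, and 2.61 and 3.28 h for all genes. SLC36A4 and SLC11A1, shown above, hold the nonamer and had half-lives of 6.74 and 6.44 h (5.62 and 3.36 h on labelled CPM), while SLC37A1, SLC4A7 and SLC26A2 had 1.71, 1.92 and 2.09 h. Members with the nonamer also had longer 3′ UTRs, with a median of 3820 bases against 1378 bases. Across the 113 members half-life had a Spearman rho of -0.33 with 3′ UTR length (-0.24 over 8782 genes), -0.35 with the number of ATTTA (-0.22) and -0.18 with ATTTA per kilobase (-0.13). It had a rho of -0.32 with the T content of the last 250 bases of the annotated 3′ UTR (-0.14 over all genes). Conversions can be seen only at T, and where the reads lay was not examined. These correlations are over genes, which are not replicates, and the parts of length and T content in the motif difference were not tested.

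Total levels of SLC25 carriers leaned downwards and those of other carriers upwards. Over the chase 51 of 145 members rose and 30 fell in edgeR on total reads (adjusted p under 0.05), where 27.4% of all genes rose and 23.9% fell. Among SLC25 carriers 10 rose and 13 fell of 37, with a median log2 change over 12 h of -0.24. Among the other carriers 41 rose and 17 fell of 108, with a median of 0.20, and the median of all genes was 0.02. Pooled, SLC25 carriers had 3258 CPM at 0 h and 3087 CPM at 12 h, and other carriers 3927 and 4727 CPM. The pooled SLC25 fall lay in SLC25A3, SLC25A5 and SLC25A6, with 2030 and 1709 CPM at those times. The other 34 SLC25 genes together rose, with 1228 and 1377 CPM. Genes are not replicates, so the difference between the groups was not tested. In bulk RNA, fewer cells that express a gene and less of its RNA per cell cannot be told apart.

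The class of sodium, chloride, bicarbonate and proton carriers leaned furthest one way, with 10 of 16 risen (62.5%) and 0 fallen by edgeR. Of all genes, 27.4% rose and 23.9% fell. The 5 nucleotide sugar carriers were close behind, with 3 risen (60%) and 0 fallen. SLC12A2, the sodium-potassium-chloride cotransporter NKCC1, had 18.7, 14.9, 17.7, 19.9 and 17.5 CPM from 0 to 2 h, 42.8 CPM at 8 h and 52.3 CPM at 12 h. Both later libraries lay above all 5 early ones. The fitted change over 12 h was 1.61 ± 0.16 for SLC12A2 (adjusted p = 1.87e-05) and 1.47 ± 0.16 for the chloride-bicarbonate exchanger SLC4A2 (adjusted p = 2.65e-05), both log2. SLC26A2 (1.05), SLC4A7 (0.72), SLC12A9 (0.47) and SLC26A6 (0.41) also rose.

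The largest rise in SLC25 was that of SLC25A24, with 29.5, 43.2, 94.3 and 86.9 CPM after 0, 2, 8 and 12 h, a log2 change of 1.56 ± 0.17 (edgeR adjusted p = 3.12e-05). The lysosomal amino acid transporter SLC36A1 had 31.2, 27.7, 79.5 and 74.6 CPM at the same times, a change of 1.53 ± 0.19 (adjusted p = 6.25e-05). SLC43A3 rose by 1.33 ± 0.11 to 347 CPM at 12 h, against 129 CPM at 0 h. In all 3 genes the 8 h and 12 h libraries lay above every earlier one.

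Among the falls, SLC30A1 had 148, 148, 145, 127 and 132 CPM from 0 to 2 h, 66.3 CPM at 8 h and 57.5 CPM at 12 h, a log2 change of -1.63 ± 0.13 (edgeR adjusted p = 4.79e-06). SLC11A1 had 18.6, 19.5, 22.5, 18.1 and 17.1 CPM, then 10.2 and 5.30 CPM, a change of -1.97 ± 0.20 (adjusted p = 2.16e-05). SLC16A1, the lactate and pyruvate transporter MCT1, chosen after its values were seen, fell by 0.87 ± 0.08 (adjusted p = 1.44e-05). The metal class as a whole was split, with 8 risen (34.8%) and 6 fallen (26.1%) of 23, near the 27.4% and 23.9% of all genes. Its risen members included 6 of the 11 SLC39 importers, such as SLC39A8 (0.81), SLC39A6 (0.66) and SLC39A14 (0.64). SLC39A4 fell to 86.5 CPM at 12 h, against 187 CPM at 0 h (adjusted p = 8.78e-05). The other 4 of the 5 largest falls were in scarce genes under 6 CPM in every chase library: SLC25A34 (-2.05 ± 0.36), the monoamine transporter SLC29A4 (-1.88 ± 0.42), the organic cation transporter SLC22A4 (-1.80 ± 0.44) and the ornithine carrier SLC25A15 (-1.65 ± 0.32). The fall of SLC22A4 was not called without the 12 h library (adjusted p = 0.0983).

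**Figure D4:**
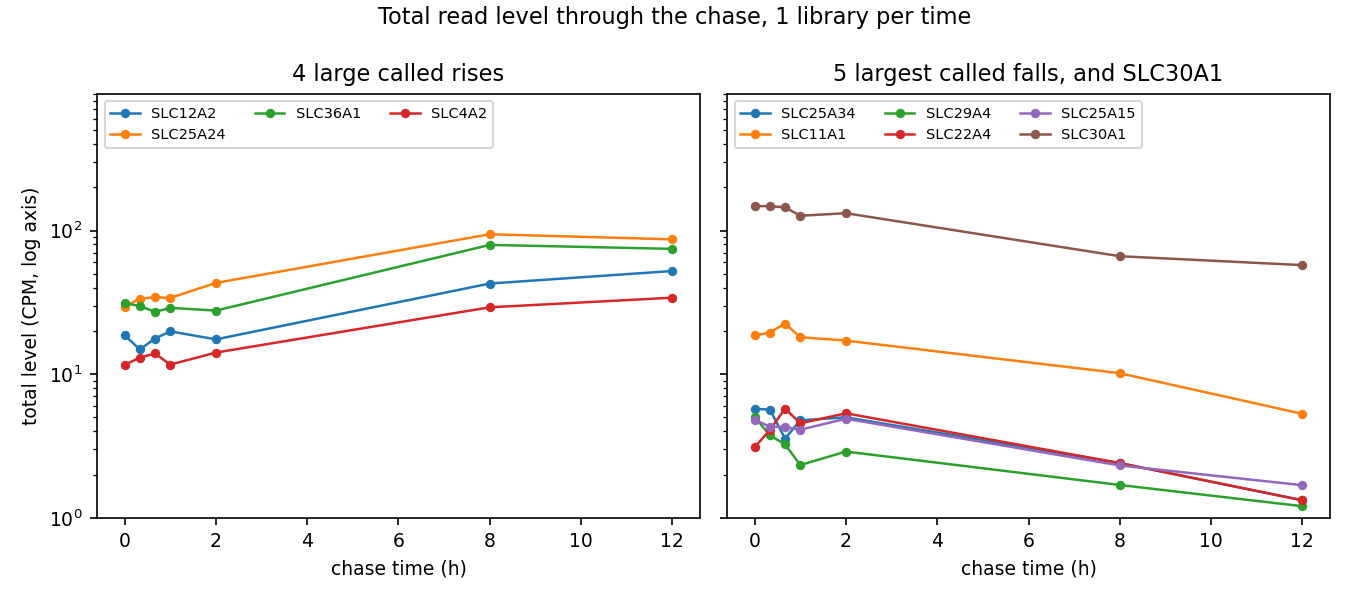
Total level (CPM, log axis) against chase time in hours, 1 library per time, for 4 of the members with the largest called rises (left) and the 5 largest called falls with SLC30A1 (right). Lines on the left run higher at 8 and 12 h than at 0 to 2 h, as for SLC12A2 at 52.3 CPM at 12 h and 18.7 CPM at 0 h, and those on the right run lower.

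Half-life and total change were linked. The 46 resolved members whose total rose had a median half-life of 2.54 h, the 20 whose total fell 5.84 h and the 47 without a call 2.86 h. Fitted on labelled CPM, the medians were 3.10, 4.39 and 2.99 h. The order of rising and falling members was the same on both scales, with a smaller gap on the second. On labelled CPM the risen members no longer lay below those without a call. Across members half-life of the share and total change had a Spearman rho of -0.48, against -0.30 over all genes. The part of the shared total in these values was not tested.

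Levels at the end of the pulse differed from those in cells without 4sU in both directions. With 1 library on each side and the marker difference given above, no test was possible, and treatment and library cannot be told apart. Of 127 members with 50 or more reads in the pair, 20 were more than 2-fold higher at 0 h and 33 more than 2-fold lower, where 19.4% and 17.9% of all genes were. Among SLC25 carriers 6 were higher and 5 lower of 33, and among other carriers 14 higher and 28 lower of 94. The median ratio was 0.825 for members, 0.928 for SLC25 and 0.759 for other carriers, against 0.994 for all genes.

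SLC2A6, the lysosomal hexose transporter GLUT6, had 76.7 CPM at 0 h and 2.40 CPM without 4sU, a ratio of 31.9 (95% interval for counting error 15.4 to 79.8). Its level stayed between 64.5 and 88.3 CPM to 8 h and reached 133 CPM at 12 h, so it did not return to the level without 4sU. SLC39A4 had 187 CPM at 0 h and 25.4 CPM without 4sU, a ratio of 7.36 (5.83 to 9.42). SLC25A34 had 5.74 CPM at 0 h and 0 reads without 4sU. Against a floor of 3 reads in that library (1.03 CPM), the ratio of SLC25A34 was 5.58. The lower 95% limit of its ratio for counting error was 4.37.

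In the other direction, SLC25A29, a carrier of basic amino acids, had 5.40 CPM at 0 h and 58.0 CPM without 4sU, a ratio of 0.0931 (0.0659 to 0.129). The fatty acid transport proteins SLC27A2 and SLC27A3 had 3.21 and 11.02 CPM at 0 h, against 24.4 and 60.4 CPM without 4sU, for ratios of 0.132 (0.0821 to 0.207) and 0.183 (0.141 to 0.235). All 3 were higher at 12 h than at 0 h, at 9.04, 9.28 and 17.8 CPM, and each remained below its level without 4sU. The abundant carriers of the ATP cycle moved less, with ratios of 0.928 for SLC25A5, 0.670 for SLC25A6 and 1.35 for SLC25A3.

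**Figure D5:**
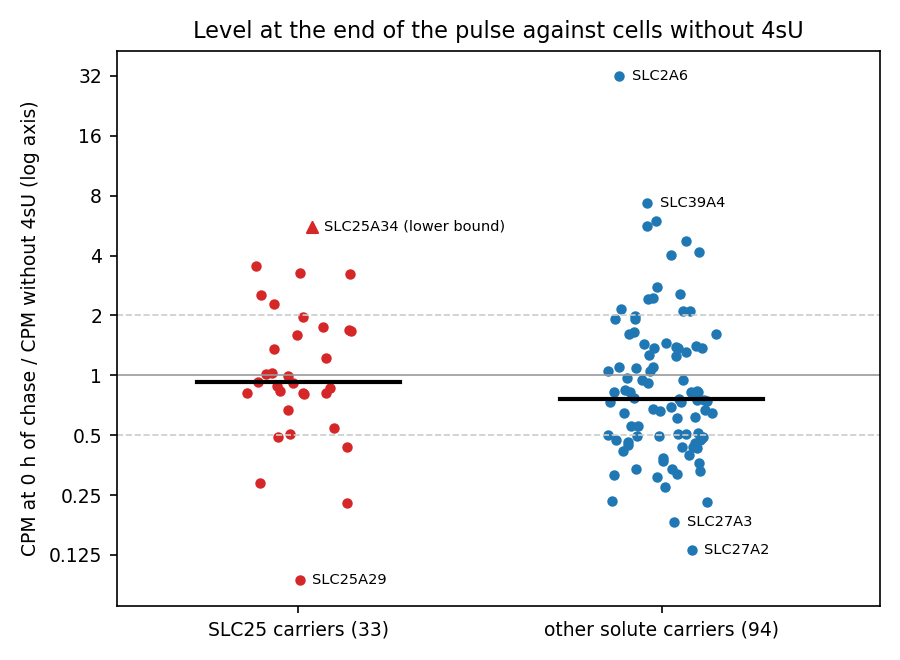
Ratio of the level (CPM) at 0 h of chase over that in cells without 4sU (log axis), 1 point per member with 50 or more reads in the pair, for 33 SLC25 carriers (left) and 94 other carriers (right). Black bars are medians and dashed lines mark 2-fold. The triangle, marked as a lower bound, is the ratio against a floor of 3 reads. SLC2A6 lies highest at 31.9 and SLC25A29 lowest at 0.0931.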

How the data were processed

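The authors deposited raw counts per 3′ UTR segment of a transcript, as total reads and as reads with T-to-C conversions, called labelled here. Per the submitters' processing notes, Trim Galore 0.6.5 and bcl2fastq 2.17.1.14 were used, with builds dm3 and hg19. The number of conversions that makes a read labelled, the aligner, the counter and its strand setting: not given in the sources used here. Drosophila spike-in reads were not used, and intervals cover counting error only, since reads carry no molecular identifiers.

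GENCODE 29 named 84.9% of 56570 transcripts by identifier, and 5.65% of counts stayed unnamed. Each gene took its segment with the most reads. Segments on alternative contigs (3056) and 85 genes with the same counts as another gene were left out.

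Label decline was tested in edgeR 4.0.16 (R 4.3.3), quasi-likelihood, on labelled reads against hours with the gene total as offset, for genes with a mean total of 50 or more and 20 or more labelled reads. Total levels were tested with TMM factors for means of 20 or more. Both were adjusted (Benjamini-Hochberg) over all genes. Half-lives are binomial maximum-likelihood fits of background plus an exponential, resolved with a called decline, at least 10 excess reads, an SE of the log rate up to 0.5 and a value of 0.25 to 24 h. Methods were tested on simulated data, the half-life fit on single exponentials with binomial counts. Those lack the late label loss and extra scatter seen here, so they do not test the fit on such data. Alternatives included DESeq2 1.42.0.

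Named by rule were the 6 shortest and 6 longest half-lives outside SLC25 and the 5 of each within it (mean of 200 reads or more, SE of the log rate up to 0.25), tested members without a call, the most abundant member of each class, the 5 largest rises and falls, the 3 largest ratios each way, and SLC25A3, SLC25A4, SLC25A5 and SLC25A6. Other named genes were chosen after their values were seen. Members, classes and lists were chosen with earlier results of these data known. Some of the genes are not reported here.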

Additional observations from a re-analysis of the deposited data

How the results depend on the processing

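Of 143 alternative values for the counts and medians over the members, 136 stayed within 1.5 times the main value. The other 7 all used the 0 to 2 h libraries alone. There, 27 members declined in label (117 with all 7 libraries). Rises of total level numbered 2 (51), with 0 in SLC25 (10) and 2 in other carriers (41), and falls 3 (30), with 1 in SLC25 (13) and 2 in other carriers (17). On the same libraries the total change reversed for SLC36A1 (-1.09), SLC22A4 (3.19) and SLC25A15 (0.20), as log2 extrapolated to 12 h, and none of these values was called (adjusted p = 0.572, 0.487 and 0.973). The cause was not tested, though these libraries span only 2 h. Half-lives from them were longer for 103 of 119 members and reached the limit of the fit, 1000 h, for 28. Fitted on labelled CPM in place of the share, half-lives of the 113 resolved members were over 1.5 times longer for 3, over 1.5 times shorter for 6 and within 1.5 times for 104.

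Leaving out each chase library in turn gave 109 to 117 declines, and medians of 2.62 to 3.05 h for members, 2.62 to 2.95 h for SLC25 and 2.62 to 3.12 h for other carriers. The order of these close medians was not stable. Without the 8 h library the members' median (2.86 h) lay below that of all genes (2.97 h). The SLC25 median (2.95 h) then lay above that of other carriers (2.86 h). With all chase libraries both orders were the other way. Rises numbered 39 to 50 and falls 26 to 32 with 1 library left out. Without the 12 h library, 8 declines were lost, those of SLC25A5, SLC25A23, SLC39A4, SLC6A8, SLC4A2, SLC25A10, SLC27A5 and SLC22A18. Depth limits members with few labelled reads. At 0 h the interval of a share reached up to 17.8 points either side over the 119 tested members. For the 80 members averaging 200 reads or more it reached up to 8.91 points. No paired analysis was possible because each condition has 1 library and the replicate numbers were given in accession order only.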
